A study of Bos taurus with 48 samples.

Results

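FOS (ENSBTAG00000004322) was 1 of 24616 genes listed, and it was followed through every library of the study by its identifier. It was chosen by its FPKM, high in cumulus cells and low in oocytes, so its levels between oocytes and cumulus cells are given as a description, with no test. The study dissected 16 bovine cumulus-oocyte complexes (COCs) into the oocyte, the inner cumulus cells next to it (innerCCs) and the outer cumulus cells (outerCCs), which gave 48 libraries, 1 for each of the 3 sample types of each COC. The COCs were aspirated from small antral follicles of Bos taurus ovaries from a slaughterhouse, they had several layers of cumulus cells, and no group was treated. Ovaries were carried to the laboratory in saline before aspiration. Cumulus cells were taken off with trypsin, the outer layers first, and the innerCCs after a wash and another round of trypsin. Handling before freezing therefore differed between the layers, and it cannot be told apart from their position. The part of handling in the FOS levels was not tested. The sources used here do not say whether 2 COCs came from 1 cow.

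FOS is an immediate-early gene: its transcription starts within minutes of a signal and needs no new protein, and its mRNA is short-lived. It is switched on through MAP kinases and ternary complex factors acting with SRF, and through cAMP and CREB. The FOS protein pairs with JUN proteins as the AP-1 transcription factor, and in granulosa and cumulus cells AP-1 is known as part of the response to gonadotropins and EGF-like factors.

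The unit is FPKM, fragments scaled to transcript length and to the fragments of the library, so that levels of different genes may be compared. The number of genes over 0.5 FPKM was 8525 to 11340 in oocytes and 9054 to 11851 in outerCCs. In innerCCs it fell into 2 sets of 8 libraries, 648 to 2639 genes in COCs 176 to 184 and 5876 to 10295 genes in COCs 185 to 192. These sets are not conditions of the study. The tissue labels were checked against marker genes. The summed FPKM of 7 oocyte markers (GDF9, BMP15 and others) was 892 to 2221 in oocytes, with medians of 2.24 in innerCCs and 1.15 in outerCCs. It reached 377 in the outerCC library of COC 191, 74.2 in that of COC 190 and 180 in the innerCC library of COC 190. The summed FPKM of 4 cumulus markers (INHA, INHBA, CYP19A1, NR5A1) was 190 to 4813 in outerCCs and 3.05 to 1888 in innerCCs, where its 8 lowest values, 3.05 to 179, were those of COCs 176 to 184 and the innerCC library of COC 192 stood at 229. All 11 symbols came from the study's tables of genes specific to 1 sample type, so these sums describe the libraries and are no independent check of the labels.

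FOS was among the most abundant mRNAs of outerCCs. Its lowest level over 16 outerCCs was 450 FPKM (COC 186), the median was 1616 FPKM and the highest was 2488 FPKM (COC 187), with a mean of 1446 FPKM ± 668 (SD, n = 16). In the outerCCs of COCs 176 to 184 the levels were 1884, 1758, 2180, 1830, 616, 771, 2123 and 1702 FPKM, in order of COC number. In those of COCs 185 to 192 they were 589, 450, 2488, 1530, 1259, 901, 859 and 2195 FPKM. OuterCCs with low and with high FOS were present in both sets, and no outerCC was as low as the highest oocyte.

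By its mean, FOS took place 41 among all listed genes in outerCCs. In single outerCC libraries its rank ran from 24 (COC 184) to 158 (COC 186), with a median of 45.5. It made up 0.0960% to 0.443% of the summed FPKM of an outerCC library. The genes directly above it by mean were ENSBTAG00000009757 (1543 FPKM ± 540, SD, n = 16) and ENSBTAG00000015285 (1486 FPKM ± 609). Those directly below were ENSBTAG00000007662 (1442 FPKM ± 681) and ENSBTAG00000015283 (1434 FPKM ± 529). The gaps between these 5 means were far smaller than each gene's SD, so their order was not resolved.

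In innerCCs FOS was at 51.4, 3.97, 110, 0.949, 3.41, 115, 10.3 and 61.1 FPKM in COCs 176 to 184. It was at 495, 362, 1031, 514, 522, 693, 946 and 179 FPKM in COCs 185 to 192. The 2 sets of innerCCs were parted by their number of genes over 0.5 FPKM, so they cannot overlap in that number. They did not overlap in FOS either, nor in the sum of the 4 cumulus markers (up to 179 FPKM and from 229 FPKM). The separation is thus not particular to FOS. How many other genes did not overlap was not counted, and the part of the number of genes in the FOS difference was not tested. FOS was over 0.5 FPKM in all 16 innerCCs, which 114 genes were. Its rank in innerCCs ran from 85 to 448 in COCs 176 to 184 and from 53 to 136 in COCs 185 to 192. By its mean of 319 FPKM it took place 82, between ENSBTAG00000023462 (320 FPKM) above and ENSBTAG00000008570 (316 FPKM) below. The next genes out were ENSBTAG00000031786 (321 FPKM) and ENSBTAG00000014971 (312 FPKM), and the SD of each of these 5 genes was far larger than the gaps between them.

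In oocytes FOS was listed at 0 in 4 libraries (COCs 184, 187, 189 and 192). The median over 16 oocytes was 0.938 FPKM, 10 of 16 were over 0.5 FPKM, and 3 were over 20 FPKM. Those 3 were COC 178 at 23.6 FPKM, COC 181 at 29.4 FPKM and COC 191 at 110 FPKM. The next highest oocyte was COC 185 at 2.83 FPKM. The rank of FOS in oocytes ran from 1214 in COC 191 to places shared among the genes listed at 0.

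**Figure D1:**
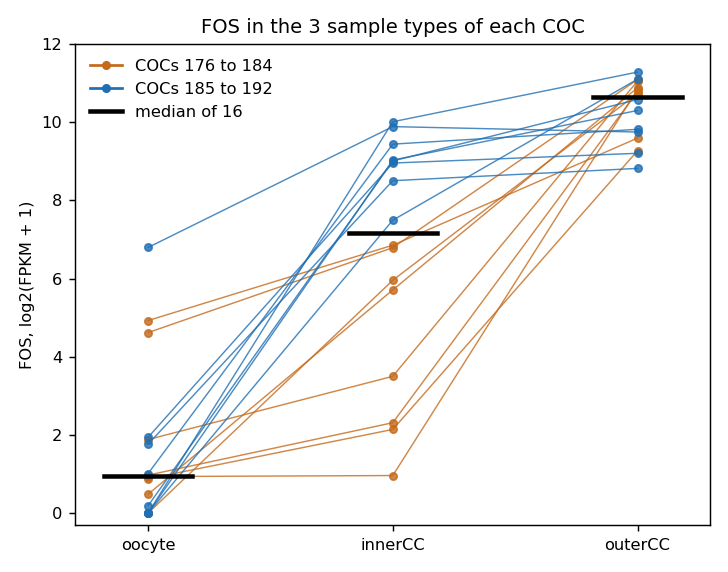
FOS as log2(FPKM + 1) in the oocyte, innerCC and outerCC library of each COC, with lines joining the 3 libraries of 1 COC, colours for the 2 sets of innerCCs and black bars for the median of 16. OuterCCs lie highest by median, and the innerCCs of COCs 185 to 192 overlap them, 6 of 8 lying above the lowest outerCC. The innerCCs of COCs 176 to 184 lie lower, and 3 oocytes stand above the other oocytes.

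Within COCs the order was the same almost throughout. FOS was higher in the outerCCs than in the oocyte in 16 of 16 COCs and higher in the innerCCs than in the oocyte in 16 of 16. It was higher in the outerCCs than in the innerCCs in 15 of 16, the exception being COC 191 (859 FPKM in the outerCCs, 946 FPKM in the innerCCs). The mean within-COC difference between oocyte and outerCCs was -8.67 ± 2.41 on the log2(FPKM + 1) scale (SD, n = 16). It was smallest in COC 191, at -2.95. The mean difference between oocyte and innerCCs was -5.01 ± 3.33 (SD, n = 16), at -2.44 in COCs 176 to 184 and -7.58 in COCs 185 to 192. On this scale the pseudocount of 1 understates the difference of low values.

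Whether FOS differed between the 2 cumulus layers depended on the libraries and on their scaling. Over all 16 COCs FOS was lower in innerCCs, by -3.66 on the log2(FPKM + 1) scale (SE 0.752; limma, adjusted p = 8.83e-05; exact permutation of the signs of the COC differences, two-sided p = 6.10e-05). In the same comparison 77.4% of 12428 detected genes were lower and 0% were higher (4 genes at an unadjusted p under 0.05), and the median of all genes was -1.42. In COCs 185 to 192 the difference was -1.07 (SE 0.401), which missed the threshold of 0.01 (limma, adjusted p = 0.0544), with FOS lower in the innerCCs of 7 of 8 COCs (exact sign-flip permutation test, p = 0.0156). There 1.53% of genes were lower, and the median of all genes was -0.71. In COCs 176 to 184 FOS was lower in the innerCCs of 8 of 8 COCs, with a mean difference of -6.25. The cumulus markers INHA and INHBA were lower in innerCCs over 16 COCs as well, by -3.99 and -2.91, and their part and that of the number of genes in the FOS difference were not tested.

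When the libraries of COCs 185 to 192 were brought to the same 75th percentile, the FOS difference was -0.051 (SE 0.211; limma, adjusted p = 0.971), with 4 of 8 COCs below 0 and an exact sign-flip permutation p of 0.773. With the number of genes per library as a covariate, the difference over 16 COCs was -0.35 (limma, adjusted p = 0.868). In bulk samples of this kind, fewer cells of a type and less RNA per cell cannot be told apart.

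Ratios of FOS to another gene within a library do not depend on the scaling of that library. The ratio of FOS to JUN in FPKM had a median of 4.10 over 16 outerCCs (1.63 to 6.90), and 3.54 over the innerCCs of COCs 185 to 192 (0.813 to 8.65). The ratio of FOS to FOSB had a median of 43.5 over 16 outerCCs (20.9 to 195) and 65.3 in those innerCCs (35.2 to 254). These medians do not cover the same COCs. In the outerCCs of COCs 185 to 192 the ratio of FOS to FOSB had a median of 60.4 (26.9 to 195). Within these COCs the mean innerCC minus outerCC difference of the log2 ratio was 0.126 ± 0.507 for FOSB (SD, n = 8). For JUN it was -0.507 ± 1.03 (SD, n = 8). The ranges of the 2 layers overlapped for both ratios. FOS was below JUN only in the innerCCs of COC 192 (179 and 220 FPKM) among these libraries.

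The oocyte libraries were set beside their cumulus marker mRNA. The oocyte library of COC 191, with FOS at 110 FPKM, had 162 FPKM of the 4 cumulus markers. That of COC 181, with FOS at 29.4 FPKM, had 23.1 FPKM of them, and that of COC 178, with FOS at 23.6 FPKM, had 5.16 FPKM. The oocyte of COC 185 held as much of the markers, 5.22 FPKM, with FOS at only 2.83 FPKM. Over all oocytes the median of the marker sum was 0.572 FPKM. CYR61 was at 22.9 FPKM, INHA at 109 FPKM and INHBA at 51.4 FPKM in the oocyte of COC 191. The part of cumulus mRNA in the FOS level of oocytes was not tested.

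On the log2 scale, FOS in oocytes rose with the marker sum (Pearson r = 0.916, permutation p = 1e-05, the smallest that 100000 permutations can give, adjusted p = 0.0001; Spearman rho = 0.800, permutation p = 0.0004, adjusted p = 0.004; n = 16; 10 relations adjusted together by Benjamini-Hochberg). Without the 2 oocytes farthest from the median of the marker sum, r was 0.720. Within COCs 185 to 192 r was 0.995 (exact permutation p = 0.000446, n = 8) and 0.962 without 2. Within COCs 176 to 184 r was 0.851 (exact permutation p = 0.011, n = 8), and it rested on 2 oocytes, since r was 0.088 without them.

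**Figure D2:**
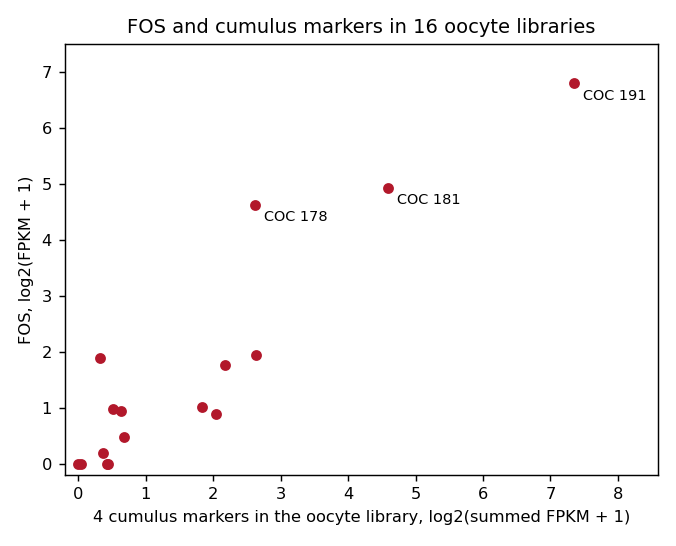
FOS as log2(FPKM + 1) against the summed level of 4 cumulus markers as log2(FPKM + 1) in the 16 oocyte libraries, 1 point per oocyte. The 3 oocytes over 20 FPKM of FOS are named, and the oocyte of COC 191 is highest on both axes.

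Of 19 genes of the AP-1 family, 5 could be matched to an identifier and all 5 were detected: FOS, FOSB, JUN, ATF2 and MAFF. Symbols were available for 33.7% of detected genes, in part from tables of genes specific to 1 sample type, so the counts between oocytes and cumulus cells that follow are not independent of how the genes could be named. FOSB, a paralogue of FOS that also pairs with JUN, and MAFF, a small MAF protein without a transactivation domain, had their symbols from tables of genes specific to cumulus cells and to outerCCs, so their differences from oocytes are given as a description.

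JUN, the classical partner of FOS, was the second most abundant of the 5 in outerCCs, at 131 to 669 FPKM with a median of 347 FPKM. Its median was 77.7 FPKM in innerCCs and 1.13 FPKM in oocytes, where the highest was 12.4 FPKM (COC 191). No oocyte reached the lowest outerCC. FOSB was at 7.85 to 90.1 FPKM in outerCCs, with a mean of 33.2 FPKM, and had medians of 3.01 FPKM in innerCCs and 0.092 FPKM in oocytes. MAFF was low everywhere, with a median of 2.63 FPKM in outerCCs, 0.191 FPKM in innerCCs and 0.274 FPKM in oocytes. ATF2, a basic leucine zipper protein that dimerizes with JUN, had the opposite order, with a median of 43.7 FPKM in oocytes, 6.92 FPKM in outerCCs and 0.131 FPKM in innerCCs.

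Between oocytes and outerCCs 3 of these 4 other members were lower in oocytes and 1 was higher, against 34.3% lower and 43.4% higher among all detected genes. JUN was lower by -6.82 on the log2(FPKM + 1) scale (limma, adjusted p = 4.40e-20), and ATF2 was higher by 2.30 (limma, adjusted p = 1.21e-07). The differences of FOSB and MAFF were -4.58 and -1.36. The median of the 4 was -2.97 and that of all genes 0.25. Between oocytes and innerCCs, 2 of 4 were lower in oocytes (JUN, FOSB), ATF2 was higher and MAFF did not pass, against 4.53% lower and 63.2% higher among all genes. The 2 comparisons share the oocytes. Between innerCCs and outerCCs all 4 were lower in innerCCs over 16 COCs, like 77.4% of genes. In COCs 185 to 192 none of the 4 passed by limma, and 2 were lower at an unadjusted p under 0.05, near the 48.4% of all genes that were.

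The counts against oocytes were also taken within COCs 185 to 192. Between oocytes and outerCCs of these COCs 1 AP-1 gene was higher in oocytes and 3 were lower, against 38.3% and 27.8% of all genes. Between oocytes and innerCCs 1 was higher and 2 were lower, against 48.8% and 14.1%. At the same 75th percentile the AP-1 counts were the same, against 32% and 36.6% for outerCCs and 28.8% and 27.3% for innerCCs.

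Of 46 immediate-early genes, 16 were matched. Their symbols came from tables of specific genes in 10 cases. The 8 most abundant in outerCCs by mean were CYR61, MYC, IER3, NR4A1, KLF6, GADD45G, RGS2 and ZFP36L2. CYR61, a secreted matricellular protein, was nearest to FOS in level, at 78.8 to 1214 FPKM in outerCCs with a median of 325 FPKM, and at medians of 36.9 FPKM in innerCCs and 0.396 FPKM in oocytes. The transcription factor MYC had a median of 69.5 FPKM in outerCCs, with 1 library far above the rest (COC 192 at 618 FPKM), and of 0.186 FPKM in oocytes. IER3, a regulator of cell survival, had medians of 61.0 FPKM in outerCCs and 0.983 FPKM in oocytes. KLF6, a zinc finger transcription factor, had medians of 32.8 FPKM in outerCCs and 0.226 FPKM in oocytes.

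NR4A1, an orphan nuclear receptor, was clearly present in oocytes too, with medians of 7.48 FPKM there, 2.91 FPKM in innerCCs and 44.0 FPKM in outerCCs. GADD45G, a stress-response protein, had medians of 21.1 FPKM in outerCCs and 1.17 FPKM in oocytes. ZFP36L2, which speeds the decay of AU-rich mRNAs, had medians of 2.96 FPKM in outerCCs and 0.0513 FPKM in oocytes. RGS2, an inhibitor of G protein signalling, was an oocyte mRNA, at a median of 1062 FPKM in oocytes against 2.47 FPKM in outerCCs and 0.704 FPKM in innerCCs.

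**Figure D3:**
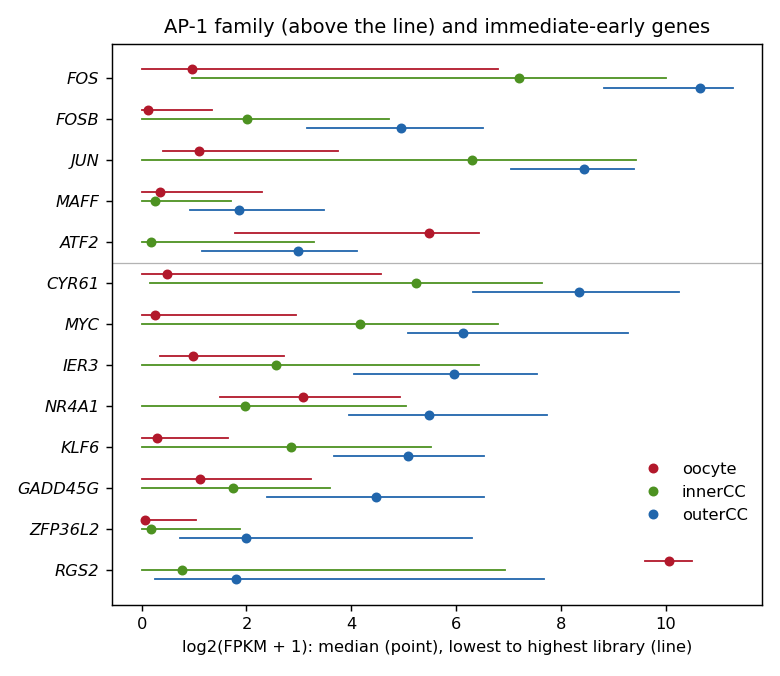
Levels of the 5 AP-1 genes (above the grey line) and the 8 most abundant immediate-early genes as log2(FPKM + 1) in 16 libraries of each sample type (oocytes in red, innerCCs in green, outerCCs in blue), with points for medians and lines from the lowest to the highest library. FOS has the highest median in outerCCs, and ATF2 and RGS2 have their highest medians in oocytes.

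Between oocytes and outerCCs 11 of the 16 immediate-early genes were lower in oocytes, 3 were higher and 2 did not pass (limma, adjusted p under 0.01), against 34.3% and 43.4% of all genes. The median difference was -1.95 on the log2(FPKM + 1) scale, against 0.25 for all genes. Among the 6 genes whose symbols did not come from tables of specific genes (IER3, NR4A1, KLF4, KLF6, GADD45G and RGS2), 4 were lower in oocytes and 1, RGS2, was higher (7.77). KLF4 was at 0.83 and did not pass (adjusted p = 0.0308 by limma). The other genes higher in oocytes, TRIB1, a pseudokinase, and DUSP5, a nuclear phosphatase of ERK, had their symbols from the table of oocyte-specific genes. KLF4, TRIB1 and DUSP5 were named after their values were seen.

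Between oocytes and innerCCs the balance of immediate-early genes, like that of all genes, moved with the setting. Over 16 COCs 5 of 16 were higher in oocytes and 3 were lower, against 63.2% and 4.53% of all genes. In COCs 176 to 184 7 were higher and 0 were lower by limma, against 9183 and 21 of all 12428 genes. With the number of genes as a covariate 4 were higher and 10 were lower, against 5435 and 2831 of all 12428 genes. In COCs 185 to 192 at the same 75th percentile 3 were higher and 9 were lower, against 28.8% and 27.3% of all genes. Between innerCCs and outerCCs 12 of 16 were lower in innerCCs over 16 COCs, a share near the 77.4% of all genes. In COCs 185 to 192 none passed by limma, and 9 were lower at an unadjusted p under 0.05, near the 48.4% of all genes that were. The median difference there was -1.08 against -0.71 for all genes.

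By its mean in outerCCs FOS was in place 41 of 24616 listed genes. That the matched genes of the pathway that switches FOS on were lower there was therefore largely fixed by the choice of FOS. Of 32 genes of the FOS induction pathway, 11 were matched. EGFR, the receptor for EGF-like factors, was the most abundant in outerCCs, with a median of 19.0 FPKM (3.66 to 25.9), and had medians of 3.70 FPKM in innerCCs and 0.728 FPKM in oocytes. MAPK14, the p38 alpha kinase, had medians of 7.21 FPKM in outerCCs and 20.1 FPKM in oocytes, where the median of FOS was 0.938 FPKM. SRF, which binds the FOS promoter, had a median of 0.702 FPKM in outerCCs. Between oocytes and outerCCs 5 of 11 were higher in oocytes and 2 were lower (EGFR by -3.30, SRF by -0.54), against 43.4% and 34.3% of all genes. SRF and 3 others had their symbols from tables of specific genes, and of the other 7 genes 3 were higher and 1 was lower. Between oocytes and innerCCs 7 of 11 were higher, near the 63.2% of all genes, and none was lower by limma, EGFR being at -0.97 with an adjusted p of 0.0363. Between innerCCs and outerCCs 9 of 11 were lower over 16 COCs, near the 77.4% of all genes. None passed in COCs 185 to 192 by limma, where 7 were lower at an unadjusted p under 0.05, against 48.4% of all genes.

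Of 15 heat shock genes, chaperones of which some are induced by stress, 5 were matched. HSPA8, a constitutive chaperone, had medians of 718 FPKM in outerCCs and 488 FPKM in oocytes, and HSP90AA1 had medians of 260 FPKM and 306 FPKM. Between oocytes and outerCCs 1 of the 5 was higher in oocytes, 1 was lower and 3 did not pass, against 43.4% higher and 34.3% lower among all genes. Between oocytes and innerCCs 4 of 5 were higher in oocytes over 16 COCs, against 63.2% of all genes. The counts moved with the setting, as those of all genes did. In COCs 185 to 192 1 was higher and 1 was lower by limma, against 48.8% and 14.1% of all genes. There at the same 75th percentile 0 were higher and 2 were lower, against 28.8% and 27.3%. With the covariate 0 passed, while 5435 of all 12428 genes were higher and 2831 were lower. Between innerCCs and outerCCs 4 of 5 were lower over 16 COCs, against 77.4% of all genes. None passed in COCs 185 to 192 by limma, where 2 were lower at an unadjusted p under 0.05, against 48.4% of all genes. Of 18 genes of cumulus expansion and luteinization, 7 were matched, all from tables of specific genes, so that their counts between sample types were largely fixed by the matching. CYP11A1, the first enzyme of steroid synthesis, had a median of 158 FPKM in outerCCs (20.5 to 647), and TIMP1, a metalloproteinase inhibitor, of 7.81 FPKM. Between oocytes and outerCCs 4 of the 7 were lower in oocytes, 2 were higher (HAS2 and CD44) and 1 did not pass. The same counts held against innerCCs. Between innerCCs and outerCCs 3 were lower over 16 COCs, against 77.4% of all genes. None passed in COCs 185 to 192 by limma, where 1 was lower at an unadjusted p under 0.05, against 48.4% of all genes.

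Markers of other cell types could be looked at only in part. The summed FPKM of 3 theca and stroma markers was 5.66 to 88.0 in outerCCs. COL1A1 (median 5.39 FPKM) and LUM (median 8.03 FPKM) were over 0.5 FPKM in 16 of 16 outerCCs, and COL1A2 had a median of 0. COL1A1 had its symbol from the table of genes specific to outerCCs and LUM from that specific to cumulus cells. Their detection in outerCCs was therefore fixed by the matching. COL1A2 and VWF, the 1 blood and endothelial marker matched, had their symbols from the table of oocyte-specific genes, so their low level in outerCCs was fixed by the matching. The part of stromal cells in the FOS level was not tested.

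The level of FOS varied between outerCCs somewhat more than that of most genes. Its SD on the log2 scale was 0.792 over 16 outerCCs, and 70.5% of the 7168 genes over 0.5 FPKM in all 16 had a smaller SD. Among the 100 genes within 1 log2 unit of its level, 85% had a smaller SD. With libraries at the same 75th percentile the SD of FOS was 0.534, and 71.8% of genes had a smaller one. In the outerCCs of COCs 176 to 184 the SD was 0.694 and 44.4% of genes had a smaller one. In those of COCs 185 to 192 it was 0.871, and 83.4% did.

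FOS was compared between the libraries of a COC. Over 16 COCs oocyte and outerCC FOS had r = -0.308 (permutation p = 0.253, adjusted p = 0.422) and rho = -0.410. Within COCs 185 to 192 the same pair had r = -0.475 (exact permutation p = 0.257, n = 8) and rho = -0.830 (exact permutation p = 0.0167, adjusted p = 0.0333 over 4 relations), and within COCs 176 to 184 r = -0.157 and rho = 0.238. Within the sets, innerCC and outerCC FOS had r = 0.054 in COCs 176 to 184 and r = -0.013 in COCs 185 to 192 (exact permutation, adjusted p = 0.949 and 0.976, n = 8). OuterCC FOS had r = 0.590 with the summed FPKM of the library (permutation p = 0.0161, adjusted p = 0.0535) and r = 0.555 with its number of genes over 0.5 FPKM (permutation p = 0.0221, adjusted p = 0.0553). The p-values of both missed 0.05 after adjustment. With libraries at the same 75th percentile r was -0.163 and -0.077. Within COCs 176 to 184 r with the number of genes was 0.969 and fell to 0.381 without 2 libraries. Within COCs 185 to 192 it was 0.459.

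Relative sequencing depth could be read for 15 outerCCs from the steps between low FPKM values, and it spanned 2.83-fold. FOS had r = -0.263 with it on the log2 scale (permutation p = 0.348, n = 15). In COC 186, the outerCC with the least FOS, the 2 readings of depth differed by 1.01 log2 units. That library was set aside after r over all 16 had been seen, and r with it was 0.086.

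The likeness of other genes to FOS across outerCCs was measured with the biweight midcorrelation (bicor), a correlation that gives outlying libraries less weight, on log2(FPKM + 1) over 16 outerCCs. It is a description: all points share the libraries' scaling. Of 10458 other genes detected in outerCCs, 189 (1.81%) had a bicor over 0.85 and 0 had one under -0.85. The median bicor was 0.524, and 96.6% of genes were above 0, so a moderate positive value was the usual one. With libraries at the same 75th percentile the median was 0.079 and 6 genes (0.0574%) were over 0.85. All 6 were among the 189. Over 0.75 there were 1035 genes (9.9%) as deposited and 66 (0.631%) at the same 75th percentile. The count of 189 also moved with single libraries, to 62 without COC 180, 65 without COC 181, 82 without COC 186, 89 without COC 185, 308 without COC 184 and 377 without COC 179.

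The gene most like FOS among those with a mean of at least 5 FPKM in outerCCs was CYR61, at a bicor of 0.943. At the same 75th percentile it was 0.736, and across the innerCCs of COCs 185 to 192 it was 0.929. The second was ENSBTAG00000007662, at 0.942, the gene just below FOS by mean level in outerCCs. It was also among the closest at the same 75th percentile, at 0.886. Then came ENSBTAG00000022278 (bicor 0.937), ENSBTAG00000014170 (0.930), SLC39A14, a zinc and manganese transporter (0.928), ENSBTAG00000007802 (0.925), ENSBTAG00000001489 (0.924), ENSBTAG00000003259 (0.922), BBX (0.921) and ENSBTAG00000018256 (0.920). At the lower end stood ENSBTAG00000004275 (-0.611), BLA-DQB, an MHC class II chain (-0.580), and ENSBTAG00000047411 (-0.491).

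More AP-1 and immediate-early genes ranked high at the same 75th percentile than as deposited. As deposited, JUN had a bicor of 0.865, above 98.8% of genes, FOSB 0.704, MAFF 0.403 and ATF2 0.466. At the same 75th percentile JUN was at 0.669, FOSB at 0.717 and MAFF at 0.614, and these 3 of 4 were above the 90th percentile of all genes, while ATF2 was at -0.375. Among the 13 immediate-early genes detected in outerCCs, 2 were above the 90th percentile as deposited and 6 at the same 75th percentile. EGR2, a zinc finger transcription factor named here after its value was seen, was second of all genes with a mean of at least 5 FPKM, at 0.910. It was at 0.428 to 11.3 FPKM in outerCCs and at a median of 0 in the other sample types. MYC (0.258), IER3 (0.113), ZFP36L2 (0.117), GADD45G (0.044) and RGS2 (0.016) were not above the 90th percentile.

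**Figure D4:**
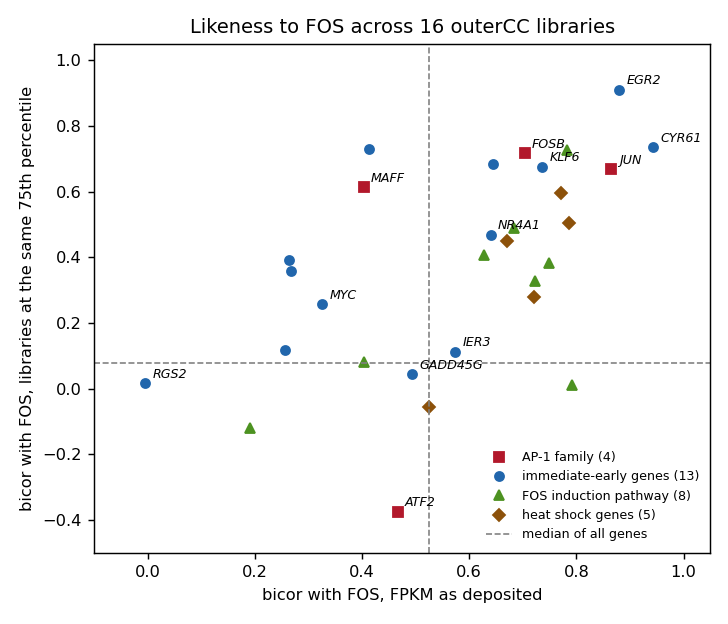
Bicor with FOS across 16 outerCCs for genes of 4 lists, with FPKM as deposited on the x axis and with libraries at the same 75th percentile on the y axis, and dashed lines at the medians of all 10458 genes (0.524 and 0.079). Among the labelled genes CYR61, EGR2, JUN, FOSB and KLF6 lie high on both axes, and ATF2 is lowest on the y axis. SRF, not labelled, also lies high on both axes.

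The cumulus markers had low values of bicor with FOS across outerCCs. INHA had a bicor of 0.270 as deposited and -0.435 at the same 75th percentile, INHBA 0.228 and -0.352, CYP19A1 0.337 and -0.291, and NR5A1 0.184 and -0.472. All 4 were below the median of all genes on both scales. The heat shock genes HSPA8 (0.787) and HSP90AA1 (0.771) were above 93.8% and 92.2% of genes as deposited, and above 92.1% and 95.9% at the same 75th percentile (0.505 and 0.596). These 2 were the only ones of the 5 matched heat shock genes above the 90th percentile on either scale. The lowest of the 5, HSPA1A, named here after its value was seen, was above 50.3% and 34.0% of genes. Of the 8 induction pathway genes detected in outerCCs, 3 were above the 90th percentile as deposited and 2 at the same 75th percentile. EGFR was at 0.793 as deposited and 0.011 at the same 75th percentile. SRF, low in outerCCs at a median of 0.702 FPKM and named here after its value was seen, was at 0.783 and 0.726.

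**Figure D5:**
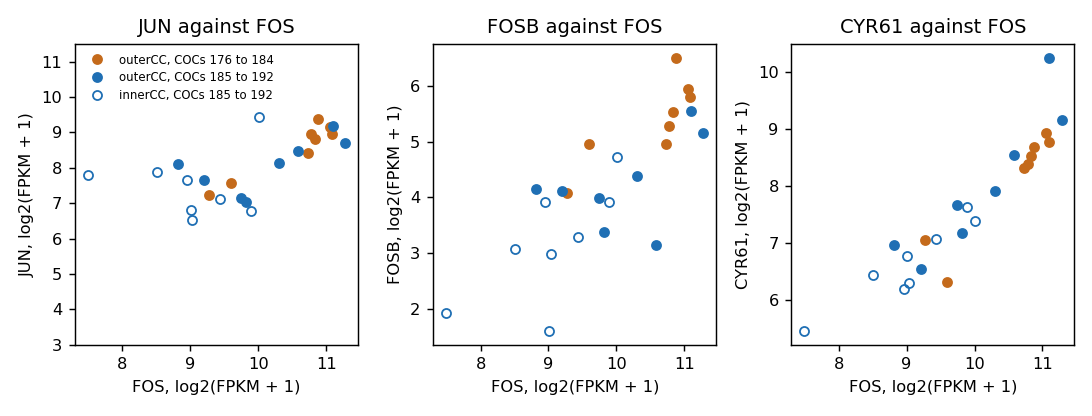
JUN, FOSB and CYR61 against FOS, each as log2(FPKM + 1), in the outerCCs of both sets (filled) and in the innerCCs of COCs 185 to 192 (open), 1 point per library. CYR61 lies closest to a line through both layers, and JUN spreads widely in the innerCCs.

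The 50 genes most like FOS in outerCCs were looked up in the other libraries. Across the innerCCs of COCs 185 to 192, 35 of 50 had a bicor over 0.5 with FOS, against 54.8% of all genes. At the same 75th percentile 7 of these 50 did, against 15.1%. When the 50 genes were themselves ranked at the same 75th percentile, 12 of 50 did, against the same 15.1%. For the 50 ranked as deposited, it was 12 of 48 across the innerCCs of COCs 176 to 184, against 10.1%, and 3 of 50 across oocytes, against 3.83%. JUN had a bicor of -0.021 with FOS across the innerCCs of COCs 185 to 192, FOSB one of 0.715.

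Over all 48 libraries, in which the contrast of oocytes with cumulus cells dominates, the genes with the highest Pearson r with FOS were ENSBTAG00000010069 (0.978), ENSBTAG00000018463 (0.976), ENSBTAG00000004215 (0.975), ENSBTAG00000016045 (0.967) and ENSBTAG00000002599 (0.967). CYR61 followed in place 6 (0.966). INHA was in place 19 (0.946), JUN in place 50 (0.923), MYC in place 62 (0.919) and FOSB in place 95 (0.909).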

How the data were processed

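RNA of cumulus cells was extracted with TRIzol and a carrier, while oocytes were lysed directly. Differences between oocytes and cumulus cells therefore cannot be told apart from this step. PolyA+ RNA of 48 samples was amplified with SMART-seq2, which keeps no strand, so reads of a gene overlapping FOS cannot be told apart. The authors aligned reads to UMD3.1 with STAR 2.5.2, removed duplicates with Picard 2.5 and deposited Cufflinks 2.2.1 FPKM values for Ensembl genes, unfiltered and filtered. The HTSeq counts behind the authors' tests were not used here. The paper gives the average number of fragments for each sample type, lowest in innerCCs, and depth in counts of single libraries is unknown.

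Values were computed with scipy 1.17.1, pandas 2.3.3 and numpy 2.4.6 under Python 3.11.15, and drawn with matplotlib 3.10.9. A gene was detected when over 0.5 FPKM in at least 8 samples of a type. Sample types were compared with limma 3.58.1 (R 4.3.3) on log2(FPKM + 1) over 12428 detected genes, with a Benjamini-Hochberg FDR under 0.01. The fits and bicor (constant 9) were tested on simulated data. The collection batch of each COC is not given in the sources used here, so batch and the sets of innerCCs cannot be told apart. Main limma p-values measure the spread between the libraries of each sample type, 1 per COC, with the libraries of a COC not paired. Sign-flip p-values measure the spread of within-COC differences, and those of r and rho come from permuting libraries.

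Symbols came from the study's supplementary tables. CYR61 is the older symbol of CCN1. Named were all matched AP-1 genes, the 8 most abundant immediate-early genes and the 2 most abundant of other lists in outerCCs, the 10 genes most and 3 least like FOS, the 5 most like it over 48 libraries, and its 2 neighbours on each side by mean. Members and lists were chosen with earlier results of these data known. A number shared by samples marks 1 COC, and deviations of innerCCs and outerCCs from their group means correlated at 0.154 on average over 16 COCs, those of oocytes with outerCCs at 0.0102 and with innerCCs at 0.0480. Alternatives were another pseudocount, scaling, filter, covariate, replicate block, set of COCs, and leaving out each COC.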

Additional observations from a re-analysis of the deposited data

How the results depend on the processing

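The innerCC minus outerCC difference of FOS kept its sign in every setting run, at -3.91 to -3.24 when 1 COC was left out and -3.66 with the replicate block of COC number (limma, adjusted p = 0.000376). It passed no threshold with the number of genes as a covariate (-0.35), in COCs 185 to 192 (-1.07) or in these at the same 75th percentile (-0.051), the last a setting chosen after seeing the data. In these 3 settings 0 genes of each of the 5 lists passed between innerCCs and outerCCs by limma, and the filtered table gave 5 expansion genes instead of 3. The block changed no call of FOS and moved no list count by over 1.5 times. Scaling to the same 75th percentile was not run on innerCCs of all COCs, since it was 0 in 4 libraries. Between oocytes and innerCCs the FOS difference was -8.71 in COCs 185 to 192 at the same 75th percentile, instead of -5.01. There 4 induction genes passed instead of 7, and 2 heat shock genes, both lower in oocytes, instead of 4 that were higher. COCs 185 to 192 as deposited gave 2 heat shock genes, 1 higher and 1 lower. The covariate gave 0 heat shock genes and 14 immediate-early genes, 4 higher and 10 lower, instead of 8, 5 higher and 3 lower. COCs 176 to 184 gave 1 AP-1 and 2 expansion genes instead of 3 and 6. Of all 12428 genes, 5435 were higher and 2831 lower in oocytes than in innerCCs with the covariate, and 9183 and 21 in COCs 176 to 184. The cause of these changes was not tested. Leaving out 1 COC gave -9.05 to -8.49 between oocytes and outerCCs and -5.34 to -4.68 between oocytes and innerCCs. The 189 genes that followed FOS became 57 by Spearman rho, 6 at the same 75th percentile, 1059 with set means subtracted and 1035 at a threshold of 0.75, and 62 to 377 without 1 COC. Within COCs 176 to 184 outerCC FOS had r = 0.969 with the number of genes and 0.843 with summed FPKM (exact permutation, adjusted p = 0.0159 for both), which fell to 0.381 and 0.037 without 2 libraries.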
